A study of Homo sapiens with 12 samples.

Results

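The genes described here make up the machinery that licenses replication origins and copies DNA in S phase, 48 genes taken by symbol from a list covering origin recognition, licensing, the MCM helicase, its activators, the sliding clamp, the polymerases, single-strand binding, deoxynucleotide synthesis and the regulators of S-phase entry. All 48 were among the 19659 genes of the mRNA table, each with a single gene identifier, and all 48 lay above the level at which genes were tested. The cells were labelled HEL, a human erythroleukaemia cell line. A total of 3 libraries came from cells grown for 3 days with 40 µg/ml DMAG (the 2-O-glucoside of 3,8-Di-O-methylellagic acid), and 3 came from controls for which no dose, day or vehicle is recorded. The series title gives inhibited proliferation and megakaryocytic differentiation as the setting. Whether libraries of a group came from separate cultures is not recorded. The p-values therefore reflect only how these libraries scatter, which may be technical. Levels are FPKM (fragments per kilobase of transcript, scaled to the fragments of the library) summed over the transcripts of a gene, and the depth behind them is unknown.

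A cell copies its genome once per division because origins are licensed in one window and fired in another. In G1, the origin recognition complex recruits CDC6 and CDT1, which load the ring of MCM2 to MCM7 onto DNA, and geminin (GMNN) later blocks CDT1. In S phase, CDC45 and the GINS complex turn the loaded ring into the active helicase, polymerases alpha, delta and epsilon copy the strands with the clamp PCNA, and ribonucleotide reductase supplies deoxynucleotides. Most of these genes are known targets of E2F transcription factors, which the retinoblastoma protein holds in check until the G1/S transition.

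The label was checked against lists of marker genes. Of 14 erythroid markers, only EPOR averaged 0.5 FPKM or more in controls, and GATA1 reached at most 0.142 FPKM. Granulocyte markers summed to between 2070 and 2250 FPKM in controls and between 1090 and 1300 with DMAG, with 4 of the 7 lower and 1 higher. Most of that sum in controls was MPO (mean 1089 FPKM) and PRTN3 (mean 916 FPKM). Over all genes tested as described below, 26.1% were lower and 22.4% higher, the background for the counts of each marker list. Among 6 monocyte markers LYZ (a lysozyme, from 168 ± 2.61 to 444 ± 26 FPKM) and ITGAM rose, FCGR1A fell 1.65-fold and 3 were too low to test. The 9 megakaryocyte markers summed to between 0.814 and 0.891 FPKM in controls and to 1.54, 1.24 and 0.711 FPKM in DMAG replicates 1, 2 and 3. Of these, 8 were too low to test. GP1BB, which made up most of the sum in controls, did not pass and was at 1.17, 0.872 and 0 FPKM in those DMAG replicates. Of the 13 mitochondrial mRNAs, 4 rose and 6 fell, with MT-ND5, MT-CYB and MT-ND6 32.5-fold, 33.9-fold and 22.7-fold higher and MT-ND3 1.84-fold lower. What part these shifts have in the results was not tested. DMAG replicate 3 stood apart by its globin mRNA: HBB was at 1367 FPKM there and at most 0.0731 elsewhere, and the erythroid list summed to 1950 FPKM against 4 to 5 in the other 5 libraries. Each control column of the mRNA table summed to between 348907 and 357821 FPKM and each DMAG column to between 328350 and 332916, so results were also computed with these sums made equal. In bulk libraries, fewer cells in S phase and less RNA per cell cannot be told apart.

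Of the 48 genes, 6 were higher with DMAG, 17 were lower and 25 did not pass (limma on log2(FPKM + 1), Benjamini-Hochberg adjusted p under 0.05 over 10394 genes). The share called was 47.9%, beside 48.6% of all genes tested. By direction, 12.5% of these genes were higher, beside 22.4% of all genes, and 35.4% were lower, beside 26.1% of all genes. Their median log2 change was -0.019, beside -0.011 for all genes, and the median size of the change regardless of sign was 0.148, beside 0.216. The libraries of the 2 groups did not overlap for 26 of the 48, or 54.2%, beside 59.5% of all genes. A single gene changed by at least 1 on the log2 scale, E2F2, which is 2.08% of the 48 beside 3.1% of all genes. With the sums of the libraries made equal, 11 of the 48 were called higher and 13 lower. The median change of all genes on the log2 scale moved to 0.091, and that of these genes to 0.080. Of the 11203 genes then tested, 3435 were higher and 1910 lower, in place of 2333 and 2717 of 10394. The share of these calls that were higher went from 46.2% to 64.3%. Without DMAG replicate 3 the counts among the 48 were 5 higher and 15 lower, beside 2029 and 2393 of the 10357 genes tested.

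**Figure D1:**
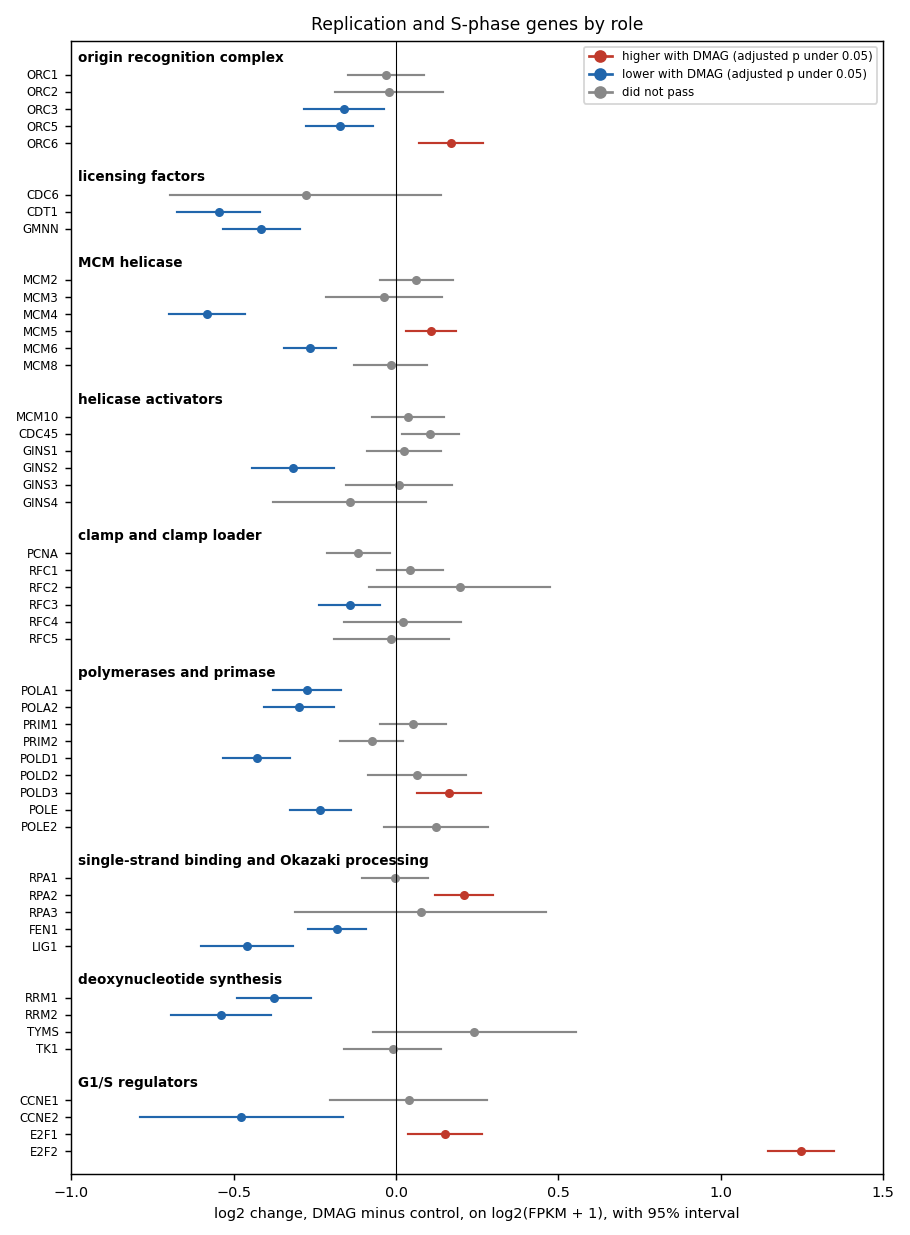
Log2 change with DMAG of each of the 48 genes on log2(FPKM + 1), grouped by role, with the 95% interval from limma (n = 3 per group). Red and blue points passed the test as higher or lower and grey points did not. E2F2 at 1.25 lies apart from all others, which run from -0.58 (MCM4) to 0.24 (TYMS), and most roles hold members on both sides of 0.

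The letters bound by E2F factors were looked for in the promoters, since they are what many of these genes are known to share. RefSeq windows from 250 bases before to 50 after the start (GRCh38.p14) were found for 41 of the 48 genes, 49 windows in all. They were searched on both strands for the 4 octamers TTTCCCGC, TTTCGCGC, TTTGCCGC and TTTGGCGC, where matches on opposite strands may overlap. At least 1 octamer was found in 21 of the 49 windows (42.9%), beside 3.31% of all 35116 windows and 4.1% of the windows of protein-coding genes. By gene, windows with an octamer belonged to 2 of 3 members that were higher, 10 of 15 that were lower and 9 of 23 that did not pass. An octamer is a description of these letters, not a binding site.

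The promoters below are shown because the same kind of octamer stands upstream of a gene that rose, of genes that fell and of a gene that did not pass. Each is written along its gene's strand, 5′ to 3′, with octamers of either strand in capitals, and ends at or before the last base upstream of the start. E2F2, which rose, is read from chr1:23531234-23531315 on the minus strand. CDT1 (chr16:88803714-88803788 on the plus strand), GMNN (chr6:24775293-24775380 on the plus strand), MCM6 (chr2:135876482-135876635 on the minus strand) and POLA2 (chr11:65261869-65261956 on the plus strand) fell. MCM3 (chr6:52284869-52284956 on the minus strand) did not pass.
E2F2: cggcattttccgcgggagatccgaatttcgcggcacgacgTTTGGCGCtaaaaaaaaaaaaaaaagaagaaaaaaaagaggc
CDT1: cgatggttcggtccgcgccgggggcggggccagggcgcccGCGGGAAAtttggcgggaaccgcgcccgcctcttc
GMNN: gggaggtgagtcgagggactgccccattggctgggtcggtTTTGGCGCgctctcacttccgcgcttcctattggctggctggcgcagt
MCM6: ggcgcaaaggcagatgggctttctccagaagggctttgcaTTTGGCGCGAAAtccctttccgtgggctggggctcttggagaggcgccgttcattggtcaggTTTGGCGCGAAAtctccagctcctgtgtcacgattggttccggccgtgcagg
POLA2: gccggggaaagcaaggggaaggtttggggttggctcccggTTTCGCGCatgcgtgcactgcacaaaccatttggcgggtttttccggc
MCM3: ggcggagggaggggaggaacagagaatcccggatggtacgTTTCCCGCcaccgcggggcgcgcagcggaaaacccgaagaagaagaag
In E2F2, GMNN and MCM6 the capitals include the octamer TTTGGCGC on the gene's strand, while MCM6 carries 4 octamers in 2 overlapping pairs.

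**Figure D2:**
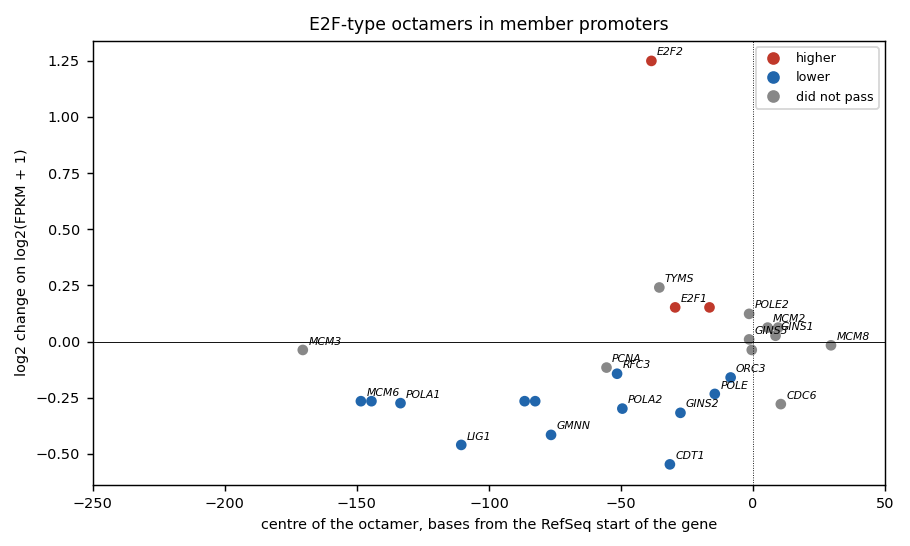
Position of each octamer (x axis, bases from the RefSeq start to the octamer's centre) against the log2 change of its gene on log2(FPKM + 1) (y axis), coloured by call. Octamers lie between MCM3, whose first base is 174 bases upstream, and MCM8, 26 bases downstream, and genes with an octamer close to the start lie on both sides of 0.

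Among the regulators of S-phase entry, E2F2 rose and cyclin E2 fell. E2F2 (ENSG00000007968; chromosome 1, 23505212 to 23531233 in RefSeq GRCh38.p14), an activating E2F, was at 7.12, 6.95 and 7.08 FPKM without DMAG and 18.6, 17.7 and 18.1 FPKM with it. Every DMAG library lay above every control, and the mean went from 7.05 ± 0.0877 to 18.1 ± 0.448 FPKM (SD, n = 3), 2.57-fold higher (log2 change 1.25, SE 0.0420, adjusted p = 2.4e-05). It had the lowest level of all 48 genes in controls. E2F1, the best-known activating E2F, was at 26.2, 24.2 and 24.3 FPKM without DMAG and 28.1, 28.5 and 26.8 FPKM with it, 1.12-fold higher (adjusted p = 0.037); leaving out control replicate 2 or 3 or DMAG replicate 1 or 2 ended this call (adjusted p 0.098 to 0.11). The ratio of E2F2 to E2F1, chosen after its values were seen and given without a test, was 0.272, 0.287 and 0.291 in controls and 0.662, 0.623 and 0.675 with DMAG. Of the cyclins that activate CDK2 at the G1/S transition, CCNE2 was at 12, 15.9 and 16.5 FPKM without DMAG and 10.6, 9.20 and 11.1 FPKM with it. It was 1.44-fold lower (adjusted p = 0.024), and leaving out any of the same 4 libraries ended the call (adjusted p 0.054 to 0.073). CCNE2 overlaps INTS8 and NDUFAF6 in RefSeq, and without a stated use of strand their reads cannot be told apart. CCNE1 was at 17.1, 13 and 15.4 FPKM without DMAG and 14.6, 16.4 and 15.6 FPKM with it, and its groups overlapped (log2 change 0.04, 95% interval -0.20 to 0.28). The ratio of CCNE2 to CCNE1, also chosen after its values were seen and given without a test, overlapped between the groups. It was 0.701, 1.22 and 1.07 in controls and 0.724, 0.56 and 0.709 with DMAG.

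Both licensing partners CDT1 and GMNN fell. CDT1 (ENSG00000167513; chromosome 16, 88803789 to 88809258), which loads the MCM ring, was at 36.5, 36.9 and 33.6 FPKM without DMAG and 22.9, 24.6 and 24.8 FPKM with it. The groups did not overlap, and the mean fell 1.48-fold from 35.7 ± 1.81 to 24.1 ± 0.999 FPKM (log2 change -0.55, SE 0.0526, adjusted p = 4.5e-04). GMNN, its inhibitor, was at 47.7, 51.9 and 49.3 FPKM without DMAG and 37.8, 38 and 35.1 FPKM with it, 1.34-fold lower (adjusted p = 9.6e-04). The ratio of CDT1 to GMNN was 0.766, 0.710 and 0.681 in controls and 0.607, 0.647 and 0.705 with DMAG, and its groups overlapped (exact permutation test, two-sided, p = 0.20 and adjusted p = 0.40 over 4 ratios, where the smallest possible is 0.1). CDC6, the ATPase that recruits CDT1, was at 35.1, 35.9 and 36.3 FPKM without DMAG and 21.6, 34.2 and 34 FPKM with it. Each DMAG library lay below each control, with DMAG replicate 1 far below the other 2, and CDC6 did not pass (log2 change -0.28, 95% interval -0.70 to 0.14).

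Changes in the origin recognition complex were small, with 1 of its 5 genes higher and 2 lower (20.0% and 40.0%, beside 22.4% and 26.1% of all genes). ORC6 was at 29.6, 28.2 and 30.5 FPKM without DMAG and 33.3, 33.5 and 32.6 FPKM with it and rose 1.13-fold (adjusted p = 0.015). ORC5, at 22, 20.9 and 20.6 FPKM without DMAG and 19.2, 18.4 and 18.4 FPKM with it, fell 1.14-fold (adjusted p = 0.017). ORC3 was at 25.2, 24.3 and 24 FPKM without DMAG and 22.6, 20.4 and 22.6 FPKM with it (1.12-fold lower, adjusted p = 0.042). The call of ORC3 was lost when any 1 of the 6 libraries was left out, and that of ORC5 without DMAG replicate 2 or 3 (adjusted p 0.054 and 0.051). Both were also lost with the library sums made equal. ORC1, the large subunit known to vary with the cell cycle, had the highest mean of the 5 in controls, though not with DMAG, where ORC6 was higher. ORC1 was at 34, 31.9 and 31.1 FPKM without DMAG and 32.9, 31.4 and 30.6 FPKM with it, and its groups overlapped (log2 change -0.03, 95% interval -0.15 to 0.09). ORC2 did not pass either, and the ratio of ORC1 to ORC2 was 2.06 ± 0.128 in controls and 2.04 ± 0.118 with DMAG (exact permutation test, two-sided, p = 0.80).

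Among subunits of the MCM ring, MCM4 and MCM6 fell and MCM5 rose. MCM4 was at 71.6, 73.8 and 65.8 FPKM without DMAG and 46.2, 46.6 and 47 FPKM with it. All 3 DMAG libraries lay within 46.2 to 47, below every control, and the mean fell 1.51-fold (log2 change -0.58, SE 0.0483, adjusted p = 2.7e-04). MCM6 was at 63.4, 62.5 and 61.3 FPKM without DMAG and 50.5, 52.5 and 52.2 FPKM with it and fell 1.21-fold (adjusted p = 0.0012). MCM5 rose, with 99.7, 97.7 and 98.3 FPKM without DMAG and 106, 104 and 109 FPKM with it (1.08-fold, adjusted p = 0.032), and leaving out control replicate 2 or 3 or DMAG replicate 1 or 3 ended the call (adjusted p 0.072 to 0.096). MCM2, the most abundant MCM gene among the 48, was at 116, 112 and 110.0 FPKM without DMAG and 113, 117 and 124 FPKM with it, and its groups overlapped (log2 change 0.06, 95% interval -0.05 to 0.17). MCM3 also overlapped, at 102 ± 4.03 and 99.7 ± 9.37 FPKM. The ratio of MCM4 to MCM5, chosen after its values were seen and given without a test, was 0.718, 0.756 and 0.670 in controls and 0.436, 0.447 and 0.432 with DMAG. A ratio within a library does not depend on how the library was scaled. By contrast the ratio of MCM2 to MCM5 was 1.14 ± 0.0237 and 1.11 ± 0.0404 (exact permutation test, two-sided, p = 0.30, adjusted p = 0.40 over 4 ratios). MCM7, the sixth subunit of the ring and not among the 48, was at 192, 188 and 185 FPKM without DMAG and 164, 163 and 166 FPKM with it (1.15-fold lower, adjusted p = 0.003). MCM8, a relative of the ring subunits that acts in recombination repair, was at 21.2 ± 0.982 and 20.9 ± 0.545 FPKM and did not pass.

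Among the 6 factors that turn the loaded ring into a working helicase, only GINS2 passed (16.7% called, beside 48.6% of all genes). GINS2, a GINS subunit, was at 12.2, 13.3 and 13.2 FPKM without DMAG and 10.4, 9.90 and 10.1 FPKM with it, 1.27-fold lower (adjusted p = 0.0034). The other GINS genes, GINS1, GINS3 and GINS4, had overlapping groups and log2 changes of 0.03, 0.01 and -0.14. CDC45, the partner of GINS in the active helicase, was the most abundant of this role at 47.2, 47.5 and 45.7 FPKM without DMAG and 50.3, 49.2 and 51.9 FPKM with it. Its DMAG libraries lay above its controls, yet it missed the threshold (adjusted p = 0.051), and it passed with the library sums made equal (adjusted p = 0.0074). MCM10 averaged 12.4 ± 0.255 and 12.7 ± 0.463 FPKM and did not pass.

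PCNA, the sliding clamp, had the highest level of all 48 genes, at 272, 263 and 251 FPKM without DMAG and 238, 242 and 245 FPKM with it. Each DMAG library lay below each control, but PCNA missed the threshold (log2 change -0.12, 95% interval -0.21 to -0.02, adjusted p = 0.056). It passed without control replicate 3 (adjusted p = 0.036), the control nearest the DMAG libraries, so no fall is read from that fit. Over all alternative fits on gene sums, that one included, its log2 change ran from -0.15 to -0.01, with adjusted p up to 0.81. Of the 5 clamp loader subunits, RFC3 fell 1.11-fold, from 26.6, 25.9 and 27.4 to 24.3, 23.4 and 24.3 FPKM (adjusted p = 0.025). Leaving out control replicate 1 or 3 or DMAG replicate 1 or 2 ended that call (adjusted p 0.050 to 0.077), as did making the library sums equal. RFC2 was at 36.1, 26.7 and 26.9 FPKM without DMAG and 34, 34.2 and 33.9 FPKM with it. RFC2 did not pass on all libraries (adjusted p = 0.21). Control replicate 1 alone lay with the DMAG libraries, and only without it did RFC2 pass as higher (log2 change 0.33, adjusted p = 0.0020). Leaving out the library seen to differ favours such a call, so no rise is read from it. RFC1, RFC4 and RFC5 had overlapping groups and log2 changes of 0.04, 0.02 and -0.01.

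The catalytic subunits of polymerases alpha, delta and epsilon all fell, and so did the accessory subunit POLA2. POLA1, the catalytic subunit of polymerase alpha, was at 23.1, 22.2 and 24.3 FPKM without DMAG and 19, 19 and 19 FPKM with it and fell 1.22-fold (adjusted p = 0.0031). Its accessory subunit POLA2 fell 1.24-fold, from 23.3, 22.9 and 22.5 to 19.4, 17.8 and 18.2 FPKM (adjusted p = 0.0024). The primase subunits that work with them did not pass: PRIM1 was at 56 ± 2.10 and 58.1 ± 1.85 FPKM (log2 change 0.05, 95% interval -0.05 to 0.15) and PRIM2 had a log2 change of -0.08. POLD1, the catalytic subunit of polymerase delta, was at 58, 58.1 and 58.3 FPKM without DMAG and 40.6, 43.6 and 44.6 FPKM with it. It fell 1.35-fold with no overlap (log2 change -0.43, SE 0.0424, adjusted p = 4.9e-04). The accessory subunit POLD2, the most abundant gene of this role, was at 83.6, 87.7 and 92.2 FPKM without DMAG and 85.9, 91.5 and 98.7 FPKM with it and its groups overlapped. POLD3, another delta subunit, rose from 21.5, 22.9 and 21.4 to 24.7, 24.9 and 24.2 FPKM (1.12-fold, adjusted p = 0.018), and without control replicate 1 or 3 or DMAG replicate 1 or 2 it did not pass (adjusted p 0.051 to 0.059). POLE, the catalytic subunit of polymerase epsilon, was at 33.4, 32.3 and 32.1 FPKM without DMAG and 27, 27.2 and 28.5 FPKM with it and fell 1.18-fold (adjusted p = 0.0036), while POLE2 was at 17.7 ± 1.53 and 19.3 ± 0.583 FPKM and did not pass. For the ratio of POLD1 to POLD2, chosen after its values were seen, controls gave 0.693, 0.662 and 0.632 and DMAG libraries 0.473, 0.477 and 0.451. For POLA1 to PRIM1, chosen likewise, these were 0.423, 0.405 and 0.416, then 0.328, 0.317 and 0.338. Of the 6 other polymerase and primase genes POLA2 fell, POLD3 rose and 4 did not pass. Of all 9 genes of this role 11.1% were higher and 44.4% lower, beside 22.4% and 26.1% of all genes. On the most abundant transcript alone the calls of POLA1 and POLD1 were lost (adjusted p 0.24 and 0.12).

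Okazaki fragments are finished by the flap nuclease FEN1 and the ligase LIG1, and both fell. LIG1 was at 34.1, 37.2 and 37.1 FPKM without DMAG and 27.1, 24.2 and 26.7 FPKM with it, 1.39-fold lower (log2 change -0.46, SE 0.0584, adjusted p = 0.0013). FEN1, the most abundant of this role in controls but below RPA2 with DMAG, was at 59, 58.2 and 55.6 FPKM without DMAG and 50.2, 51.9 and 49.9 FPKM with it, 1.14-fold lower (adjusted p = 0.0084), a call lost with the library sums made equal (adjusted p = 0.14). Of the 3 subunits of RPA, which coats single-stranded DNA, RPA2 rose from 50.2, 48.9 and 47.3 to 56.8, 55.4 and 57.6 FPKM (1.16-fold, adjusted p = 0.0044). RPA1 was at 24.3 ± 0.608 and 24.3 ± 0.837 FPKM, with a 95% interval of the log2 change of -0.10 to 0.10. RPA3 did not pass, with control replicate 3 at 21.9 FPKM below all other libraries.

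Both subunits of ribonucleotide reductase, the enzyme that makes deoxynucleotides, fell. RRM2, the subunit known to peak in S phase (chromosome 2, 10122568 to 10211010), was at 133, 131 and 129 FPKM without DMAG and 81.8, 96.4 and 92.3 FPKM with it. It fell 1.45-fold (log2 change -0.54, SE 0.0636, adjusted p = 9.5e-04), with DMAG replicate 1 the lowest. RRM1, the catalytic subunit, was at 41.7, 41.1 and 42.8 FPKM without DMAG and 32, 30.4 and 33.8 FPKM with it, 1.31-fold lower (adjusted p = 0.0011). Their ratio, RRM2 to RRM1, was 3.13 ± 0.103 in controls and 2.82 ± 0.318 with DMAG, with overlap (exact permutation test, two-sided, p = 0.20, adjusted p = 0.40 over 4 ratios). TYMS, thymidylate synthase, the most abundant of this role, was at 166, 158 and 154 FPKM without DMAG and 208, 152 and 212 FPKM with it. TYMS did not pass on all libraries (adjusted p = 0.17). DMAG replicate 2 lay just below the controls and the other 2 above them, and only without that library did TYMS pass as higher (log2 change 0.39, adjusted p = 0.0031). As for RFC2, no rise is read from that fit. TYMS overlaps ENOSF1 in RefSeq, with the same limit as for CCNE2. TK1, the S-phase thymidine kinase, was at 36.1 ± 2.74 and 35.8 ± 1.32 FPKM and did not pass (95% interval of the log2 change -0.16 to 0.14).

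**Figure D3:**
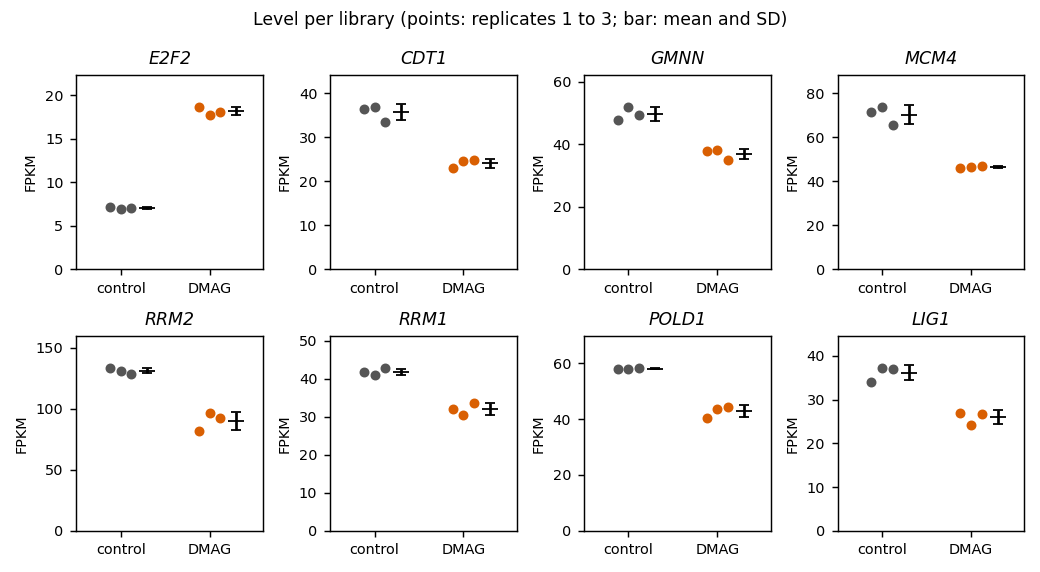
FPKM of 8 genes in each library, with controls in grey and DMAG in orange and the mean and SD (n = 3) beside them, on axes that start at 0. E2F2 lies higher with DMAG (17.7 to 18.6 FPKM against 6.95 to 7.12), and the other 7 lie lower with no overlap.

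The 48 genes comprised 205 transcripts, of which 141 averaged 0.5 FPKM or more. Tested as transcripts, 4 rose and 8 fell, or 8.51% beside 10.3% of all 26969 transcripts tested. The most abundant transcript, by its mean over all 6 libraries, passed in 10 of the 48 genes. E2F2 has a single transcript in the table (ENST00000361729), and CDT1 is nearly all ENST00000301019, which had a log2 change of -0.55. In 7 genes, CCNE2, CDC6, LIG1, MCM3, MCM4, POLA1 and RRM2, the share of the most abundant transcript in the gene sum differed by over 50 percentage points between libraries. For MCM4, ENST00000649973 held 22.6%, 17.4% and 96.2% of the sum in controls and 95.2%, 99.6% and 96.3% with DMAG, while ENST00000650216 was listed at 46.1, 56.8 and 0 FPKM in controls and at 0 in each DMAG library. Control replicate 3 thus had the transcript mix of the DMAG libraries at the gene level of the controls. For RRM2, ENST00000304567 made up 9.81% of the sum in DMAG replicate 1 and 84.8% and 95% in the other 2. For CDC6, ENST00000647931 was at 2.76 FPKM in DMAG replicate 1 and between 29.9 and 31.3 elsewhere, the library in which the gene sum was low. For CCNE2, ENST00000520509 was at 10.9, 6.76 and 5.69 FPKM without DMAG and 0.911, 1.11 and 1.02 FPKM with it (log2 change -2.08, adjusted p = 0.0074). It held 91%, 42.6% and 34.4% of the CCNE2 sum in controls and 8.59%, 12.1% and 9.23% with DMAG. A test on the most abundant transcript alone called 5 of the 48 genes higher and 9 lower, beside 1586 and 1768 of the 10157 genes tested. In that test 12 of the 23 gene calls stood in the same direction. There MCM4, GMNN and LIG1, each lower as a gene, and ORC6, higher as a gene, had changes of the opposite sign that did not pass (log2 0.90, 0.23, 0.81 and -0.15).

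**Figure D4:**
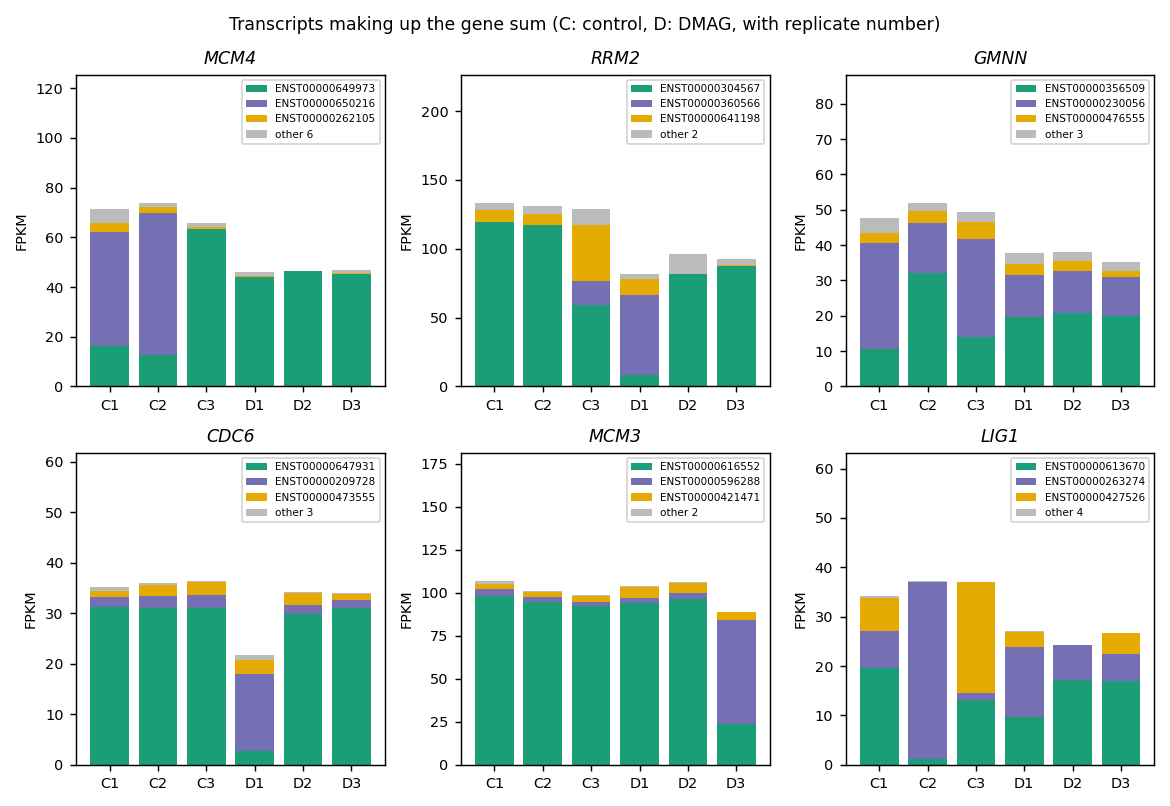
FPKM of the 3 most abundant transcripts of 6 genes and the sum of their other transcripts (grey), stacked per library. The height of the stacks separates the groups for MCM4, RRM2, GMNN and LIG1, while the colours change between libraries of a group, as in MCM4 control replicate 3 and MCM3 DMAG replicate 3.

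The genes that work beside these were read from lists of their own, chosen with earlier results of these data known. Of 40 other genes of origin firing, the fork and chromatin assembly behind it, 9 rose, 13 fell and 18 did not pass (22.5% higher and 32.5% lower, beside 22.4% and 26.1% of all genes), with a median log2 change of 0.004. With the library sums made equal these were 13 and 7, where 64.3% of the calls over all genes were higher. RNASEH2C, a subunit of the nuclease that removes ribonucleotides from DNA, fell from 18.2, 18.5 and 16.8 to 10.9, 9.87 and 10.0 FPKM (1.73-fold, adjusted p = 2.2e-04). SSRP1, a subunit of the histone chaperone FACT, fell 1.40-fold, and CHTF18, of an alternative clamp loader, 1.46-fold. UHRF1, which maintains DNA methylation at the fork, rose from 34.4, 37.2 and 37 to 53.1, 57.4 and 50.9 FPKM (1.49-fold, adjusted p = 5.4e-04), the histone chaperone ASF1B rose 1.40-fold and the topoisomerase TOP2A 1.25-fold.

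Most of the genes that supply nucleotides fell. Of 25, 16 fell, 2 rose and 7 did not pass (64.0% lower beside 26.1% of all genes), with a median log2 change of -0.279 beside -0.011. With the library sums made equal 12 fell and 3 rose, with a median of -0.184 beside 0.091. SLC29A1, a nucleoside transporter of the plasma membrane, was at 61.1, 69 and 67.9 FPKM without DMAG and 29.7, 28.4 and 28 FPKM with it, 2.30-fold lower (log2 change -1.17, SE 0.0556, adjusted p = 5.0e-05). IMPDH2, which commits purines to guanine nucleotides, fell from 111 ± 3.80 to 72.6 ± 1.62 FPKM, and PFAS, a purine synthesis enzyme, from 22.3 ± 0.264 to 14.2 ± 0.541 FPKM (adjusted p = 1.4e-04). DCK, the deoxycytidine kinase of the salvage route, rose 1.23-fold and DUT, which removes dUTP, 1.11-fold (adjusted p = 0.045). Without control replicate 1 or 2 or DMAG replicate 2 or 3, 1 gene of the list was higher in place of 2.

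Of 23 regulators around E2F, the retinoblastoma family and the G1/S transition, 22 could be tested, of which 7 rose and 4 fell while 11 did not pass (31.8% higher and 18.2% lower, beside 22.4% and 26.1%). With the library sums made equal these were 9 and 2, where 64.3% of the calls over all genes were higher. RBL2, the pocket protein p130, was at 32.1, 30.7 and 31.2 FPKM without DMAG and 45.9, 44.8 and 46.6 FPKM with it and rose 1.46-fold (adjusted p = 1.3e-04). RB1, the retinoblastoma gene itself, rose 1.28-fold and CKS1B, a subunit of cyclin-dependent kinase complexes, 1.22-fold. SKP2, which marks p27 for degradation, fell from 32.3, 42.2 and 36.6 to 19.4, 25.6 and 22.2 FPKM (1.65-fold, adjusted p = 0.0053), MYBL2 fell 1.22-fold and TFDP1, the partner of E2F factors on DNA, 1.12-fold.

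**Figure D5:**
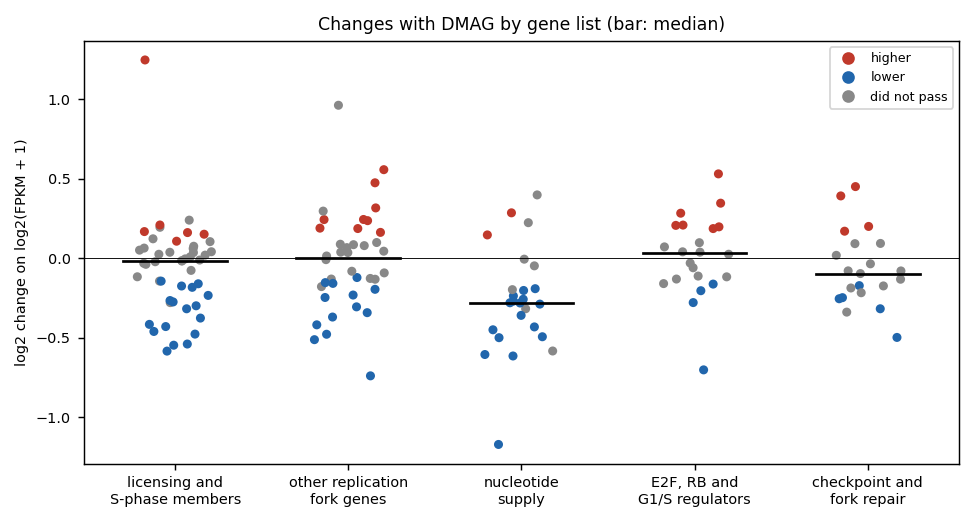
Log2 change on log2(FPKM + 1) of each gene tested in the 48 licensing and S-phase genes and in the lists read beside them, with the median as a bar and calls in colour. The median of the nucleotide supply genes lies at -0.279 and those of the other lists between -0.096 and 0.033.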

How the data were processed

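Per the labels' protocols, ribosomal RNA was removed and cDNA was made with dUTP in place of dTTP. The authors deposited FPKM per transcript. GRCh38, StringTie 1.3.3, HISAT2 2.0.4 and Bowtie are listed, without roles, in the submitters' processing notes. How fragments were assigned, and whether strand was used, is not stated there. FPKM of 83027 transcripts were summed over 19659 gene identifiers. The 10394 genes averaging 0.5 FPKM or more over the 6 libraries were fitted with limma 3.58.1 in R 4.3.3, using log2(FPKM + 1) and moderated variances that follow the mean level. Benjamini-Hochberg adjusted p under 0.05 made a call. Log2 changes and their SE and 95% intervals are on that scale, which understates low genes, while folds are ratios of mean FPKM and SDs have n = 3. The 48 genes and all lists were chosen with earlier results of these data known. By rule, values per library are given for called members and for the most abundant member of each role, and other lists by up to 3 called genes per direction with the smallest p. Outside that rule, values per library are also given for CDC6, CCNE1 and RFC2, which did not pass. On simulated data (10394 genes, 200 changed), 16.4%, 46.3% and 77.3% of log2 changes of 0.25, 0.5 and 1 were recovered, and 2.11% of calls were false. Far fewer genes changed there than the 5050 called here, so these rates do not carry over to this comparison. Promoter sequences and gene positions are those of RefSeq (GRCh38.p14). Of the 48 genes, 20 overlap another protein-coding or lncRNA gene there, 8 of them a protein-coding gene. The circular RNA table names no host genes, so the circular RNAs of these genes were not tested, and miRNA and lncRNA tables were not used here. The level of 1 marker gene is not reported here.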

Additional observations from a re-analysis of the deposited data

How the results depend on the processing

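Over other pseudocounts, filters, scalings, a replicate block, a fit without a mean trend and omission of each library, all on gene sums, the 23 called genes kept their direction, and 15 kept their call under each of these 15 alternatives. E2F2 ranged from a log2 change of 1.23 to 1.42 and CDT1 from -0.59 to -0.46 over all 16. Leaving out 1 library at a time gave 17 to 22 genes called in place of 23, 3 to 7 higher in place of 6 (3 without control replicate 3 or DMAG replicate 1) and 13 to 15 lower in place of 17. Over all genes tested, these fits gave 1903 to 2150 higher in place of 2333 and 2303 to 2443 lower in place of 2717. For transcripts these fits gave 6 to 10 in place of 12, with 6 without DMAG replicate 1 and 7 without control replicate 2. With library sums made equal, with or without mitochondrial genes, 11 genes were higher, MCM2, CDC45, RFC1, PRIM1 and POLE2 among them, and the calls of ORC3, ORC5, RFC3 and FEN1 were lost. On the most abundant transcript alone 14 genes were called, 9 of them lower, with 1768 lower over all genes in place of 2717; reversed there were MCM4 (0.90), LIG1 (0.81), GMNN (0.23) and ORC6 (-0.15), and the cause was not tested. The ratio of ORC1 to ORC2, -0.01 on the log2 scale, ran from -0.05 to 0.04 when 1 library was left out, positive without control replicate 2 (0.04) or DMAG replicate 3 (0.03). Deviations of same-numbered libraries correlated at -0.0048, 0.043 and 0.027 for replicates 1, 2 and 3. Control replicates 2 and 3 each correlated best with the DMAG library of their number, and control replicate 1 with DMAG replicate 3 (0.019). Correlations this near 0 cannot tell whether the numbers pair the libraries. With the replicate number as a block 4 genes were higher and 16 lower and 1 transcript was called. The planned test of circular RNAs was not run. The FPKM carry no depth, so counting error could not be given.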

Other observations

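Genes of the replication checkpoint and of fork repair were also read. Of 21, 4 rose, 5 fell and 12 did not pass (19.0% higher and 23.8% lower, beside 22.4% and 26.1% of all genes tested with limma). With the library sums made equal, 6 rose and 2 fell, where 64.3% of the calls over all genes were higher. Leaving out control replicate 2 left 3 higher, and leaving out any other library left 2, with 5 or 6 lower. FANCD2, of the Fanconi anaemia pathway, was at 36, 33.9 and 34.8 FPKM without DMAG and 46.6, 48.9 and 48.7 FPKM with it, 1.38-fold higher (adjusted p = 3.1e-04). BRCA2, the recombination mediator, rose 1.34-fold from 10.5 ± 0.181 to 14.1 ± 0.213 FPKM, and RAD17, which loads the checkpoint clamp, 1.17-fold (adjusted p = 0.035). RAD54L, a recombination motor protein, was at 26.8, 28.7 and 30.7 FPKM without DMAG and 19.7, 20.1 and 20.2 FPKM with it, 1.43-fold lower (adjusted p = 7.4e-04). HUS1, a subunit of the checkpoint clamp, fell 1.28-fold (adjusted p = 0.0083) and the checkpoint kinase ATR 1.13-fold (adjusted p = 0.01).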
